A study of Mus musculus with 6 samples.

Results

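The genes described here are 10 that control lysosome production: the transcription factor genes Tfeb, Tfe3 and Mitf, the folliculin complex genes Flcn, Fnip1 and Fnip2, the Rag GTPase genes Rragc and Rragd, the lysosomal calcium channel gene Mcoln1 and the lysosomal glycoprotein gene Gpnmb. They were chosen by symbol and all 10 were found among the 24421 rows of the expression table. RNA was sequenced from cultures of mouse proximal tubular epithelium, taken as primary cells from the part of the kidney tubule that reabsorbs most of the filtrate. There were 3 libraries of genotype Atg5KO and 3 of genotype Atg5F/F, the floxed control. Cells of both genotypes had received 20 µM erastin2 for 24 h, an agent that blocks cystine uptake and can cause ferroptosis, so every difference is between genotypes under the drug, and no untreated cells were measured. The labels give neither the method of deletion nor the animal or culture of each library, so p-values measure the spread between these libraries, which may be technical.

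TFEB, TFE3 and MITF are closely related factors that bind E-box DNA and switch on genes of lysosomes and autophagy. When amino acids are plentiful, Rag GTPases hold the factors and the kinase mTORC1 at the lysosome, where phosphorylation keeps the factors out of the nucleus. Folliculin, with its partners FNIP1 and FNIP2, acts on the GTP state of RagC and RagD and so favours that phosphorylation. Calcium leaving the lysosome through mucolipin 1 (Mcoln1) promotes the opposite step. Flcn, Rragd, Mcoln1 and Gpnmb are also known as targets of these factors. RNA levels carry no information on phosphorylation or on where in the cell the proteins are.

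In GENCODE vM21 on GRCm38 the genes lie on separate stretches of the genome, given here with the strand in parentheses. The factor genes are Tfeb at chr17:47737030-47792419 (+), Tfe3 at chrX:7762560-7775202 (+) and Mitf at chr6:97807052-98021349 (+). The folliculin complex genes are Flcn at chr11:59791408-59810016 (-), Fnip1 at chr11:54438199-54518235 (+) and Fnip2 at chr3:79455974-79567796 (-). The Rag genes are Rragc at chr4:123917446-123936997 (+) and Rragd at chr4:32983037-33022180 (+), and the lysosomal genes are Mcoln1 at chr8:3500457-3515232 (+) and Gpnmb at chr6:49036546-49070929 (+).

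Of the 4 promoter windows shown next, 3 are those of the genes with the E-box CACGTG, the core of the CLEAR element that TFEB binds, and the last is that of Gpnmb, the gene with the largest difference. Each window is RefSeq sequence on GRCm38.p6, plus strand, from 250 bases before to 50 bases after the annotated start, with E-boxes in capitals.
Mcoln1, chr8:3500269-3500568: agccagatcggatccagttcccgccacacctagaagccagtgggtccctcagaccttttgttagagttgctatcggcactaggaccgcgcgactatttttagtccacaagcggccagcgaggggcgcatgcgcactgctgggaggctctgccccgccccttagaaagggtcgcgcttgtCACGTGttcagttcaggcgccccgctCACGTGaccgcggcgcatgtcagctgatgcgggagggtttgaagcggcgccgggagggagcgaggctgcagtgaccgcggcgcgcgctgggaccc
Fnip1, chr11:54437929-54438228: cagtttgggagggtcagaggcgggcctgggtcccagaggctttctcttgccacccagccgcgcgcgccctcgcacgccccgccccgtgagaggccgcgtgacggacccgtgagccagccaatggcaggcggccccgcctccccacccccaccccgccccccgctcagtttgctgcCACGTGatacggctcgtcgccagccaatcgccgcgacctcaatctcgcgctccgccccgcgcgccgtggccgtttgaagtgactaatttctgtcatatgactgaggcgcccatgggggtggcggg
Rragc, chr4:123917183-123917482: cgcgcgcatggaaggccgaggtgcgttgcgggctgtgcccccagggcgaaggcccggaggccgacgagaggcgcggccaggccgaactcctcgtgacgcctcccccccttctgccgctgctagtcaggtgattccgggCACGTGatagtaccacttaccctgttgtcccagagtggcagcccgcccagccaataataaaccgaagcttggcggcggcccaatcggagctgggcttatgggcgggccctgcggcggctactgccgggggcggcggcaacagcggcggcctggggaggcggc
Gpnmb, chr6:49036268-49036567: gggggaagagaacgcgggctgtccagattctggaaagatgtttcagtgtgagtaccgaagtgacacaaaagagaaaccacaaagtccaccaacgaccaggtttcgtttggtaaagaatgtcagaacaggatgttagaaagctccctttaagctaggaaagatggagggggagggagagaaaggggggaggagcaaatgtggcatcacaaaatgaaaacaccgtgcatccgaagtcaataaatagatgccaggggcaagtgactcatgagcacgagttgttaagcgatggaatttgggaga

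The Mcoln1 window holds 2 E-boxes, which begin 71 and 45 bases before the start. The Fnip1 window holds 1 E-box beginning 75 bases before the start, and that of Rragc holds 1 beginning 112 bases before it. All 10 genes had a window (15 in all, since Tfeb and Mitf each have 3 annotated starts and Tfe3 has 2), and 3 of the 10 held CACGTG, a motif that reads the same on both strands. Of all 27025 mouse genes in the table, 8.09% had a window with the motif. Of their 32851 windows, 7.15% held it, and 0.594% held it at least 2 times. No window of the 10 genes held the full 10-base CLEAR element, a palindrome that contains CACGTG and was found in 0.326% of all windows. None held the M-box, read as TCATGTG or CACATGA, which 3.77% of all windows held. A match describes letters only, and a missing match says only that these letters are not in this window.

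**Figure D1:**
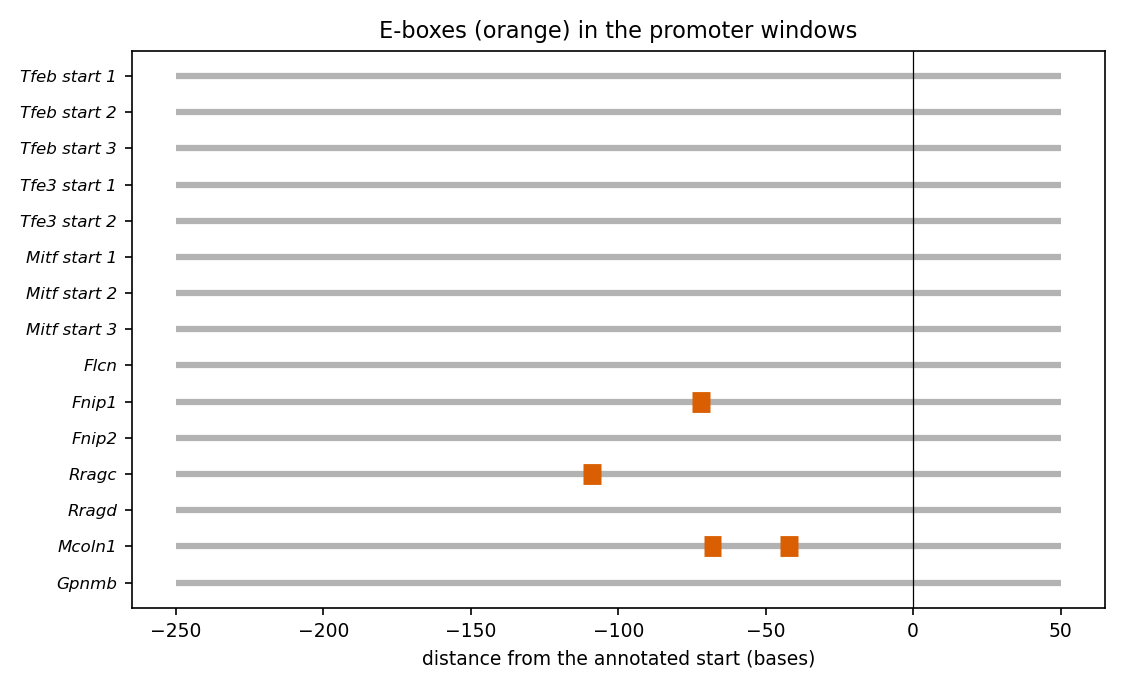
Promoter windows of the 10 genes, 1 line per annotated start, against the distance from that start in bases, with CACGTG motifs as orange blocks. Mcoln1 carries 2 motifs, Fnip1 and Rragc carry 1 each, and the other lines carry none.

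Under erastin2, Atg5KO cells differed from Atg5F/F cells in 6 of the 10 genes (limma, Benjamini-Hochberg adjusted p under 0.05 over 11559 tested genes). Gpnmb fell by 69.4%. Flcn, Mcoln1 and Tfe3 fell by 9.26% to 14.6%, and Fnip1 and Rragc rose by 18.2% and 8.73%. Tfeb, Mitf, Fnip2 and Rragd did not pass the test. All 10 genes passed the filter of at least 1 FPKM (fragments per kilobase of gene, scaled to the library total) in at least 3 of the 6 libraries. Across all tested genes 17.9% were called lower and 21.3% higher, 39.2% in either direction, so the share of the 10 genes called is to be read against that background. Their median absolute log2 fold change was 0.13, and it was also 0.13 over all tested genes. The groups did not overlap in 7 of the 10 genes, 2 higher and 5 lower in Atg5KO, against 51.9% of tested genes (28.7% higher and 23.2% lower). Without Atg5KO replicate 3 or Atg5F/F replicate 3, 2 genes in place of 4 were called lower, and without any single library other than Atg5KO replicate 3, 1 gene in place of 2 was called higher. Median-ratio scaling gave 1 higher and 4 lower. Fold changes are Atg5KO minus Atg5F/F on a log2(FPKM + 1) scale, and for weakly expressed genes that scale understates a change.

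**Figure D2:**
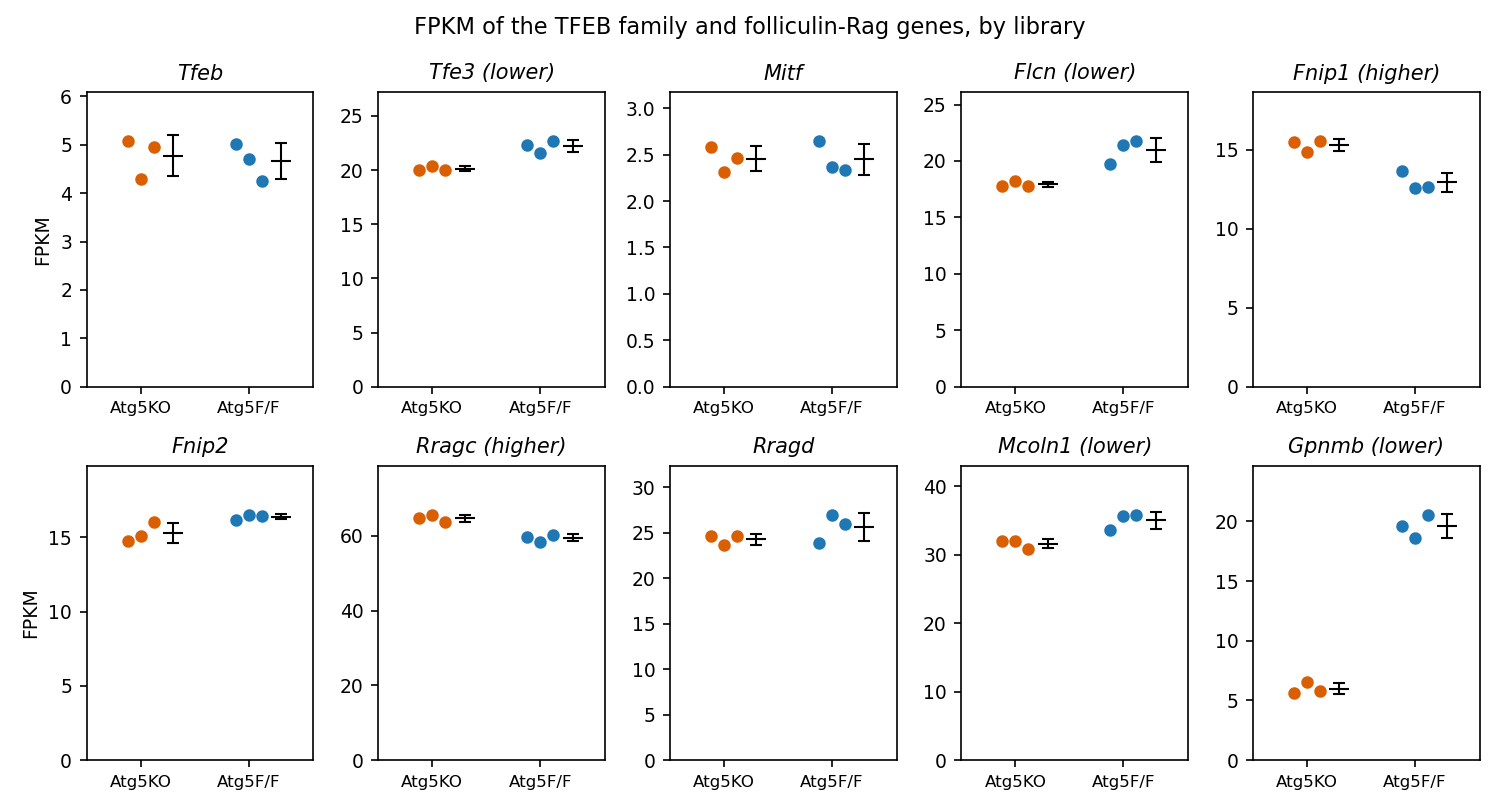
FPKM of each gene by library, with 3 Atg5KO libraries (orange) left of 3 Atg5F/F libraries (blue) and the mean ± SD of each group in black; titles name the direction where the gene was called. Gpnmb lies between 5.61 and 6.55 FPKM in Atg5KO libraries and between 18.6 and 20.6 FPKM in Atg5F/F libraries, while the other genes differ by small steps.

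Several measures of the whole libraries bear on these values. Totals implied by the FPKM steps were 15528454 to 30004933 reads per library, and each of the 10 genes had at least 190 reads in every library. Each gene's deviation from its mean over the 6 libraries was correlated with gene length across tested genes (Spearman's rho, a description) at 0.04 to 0.34 in Atg5KO and -0.23 to -0.16 in Atg5F/F libraries, ranges that did not overlap. Atg5, the targeted gene, averaged 12.5 ± 0.936 FPKM in libraries labelled Atg5KO and 8.55 ± 0.538 FPKM in Atg5F/F libraries (SD, n = 3 each). It was thus higher under the knockout label; the level of a whole gene does not reveal a missing exon, so the labels could not be checked from it. Of 13 proximal tubule markers, 8 were measured above the filter, with Lrp2 at 34.1 to 36.2 FPKM in Atg5KO and 53.8 to 55.3 FPKM in Atg5F/F libraries. Of the 13, Cubn, Slc34a1, Slc5a2, Slc22a6 and Anpep stayed under 1 FPKM in every library. The brush border enzyme gene Ggt1 had 52.3 to 58.4 FPKM in Atg5KO and 116.4 to 136.6 FPKM in Atg5F/F libraries (log2 fold change -1.20, limma adjusted p = 4.9e-06). The water channel gene Aqp1 was the marker called higher (0.35, limma adjusted p = 0.019). The summed level of the 13 was 369.6 to 400.4 FPKM in Atg5KO and 466.9 to 492.9 FPKM in Atg5F/F libraries, with 6 markers called lower and 1 higher. Their part in the results was not tested.

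Tfeb, the founding member of the family in lysosome control, stood at 5.08, 4.29 and 4.96 FPKM in Atg5KO replicates 1 to 3, against 5.01, 4.72 and 4.26 FPKM in Atg5F/F replicates 1 to 3. The ranges of the groups overlapped almost entirely. The log2 fold change was 0.03 with an SE of 0.0784 (limma, adjusted p = 0.80), and its sign turned when Atg5KO replicate 1 (-0.01) or Atg5F/F replicate 3 (-0.02) was left out. These values rest on 205 to 283 reads in Atg5KO and 207 to 425 reads in Atg5F/F libraries, the fewest among the 10 genes together with Mitf.

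Mitf, the family member best known as the master factor of pigment cells, had 2.58, 2.32 and 2.46 FPKM in Atg5KO libraries, against 2.65, 2.36 and 2.33 FPKM in Atg5F/F libraries. It was the least abundant of the 10 genes, and its values interleaved between the groups. The log2 fold change was 0.00 with an SE of 0.0744 (limma, adjusted p = 0.98), and its sign depended on the scaling, from -0.06 with the trend on gene length removed to 0.00.

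Tfe3, which shares targets with TFEB, was the family member among the 10 that differed. It stood at 20.0, 20.4 and 20.0 FPKM in Atg5KO libraries, against 22.3, 21.6 and 22.7 FPKM in Atg5F/F libraries. Every Atg5KO library lay below every Atg5F/F library, by a small margin. The means were 20.1 ± 0.192 FPKM in Atg5KO and 22.2 ± 0.544 FPKM in Atg5F/F libraries (SD, n = 3 each), which put the log2 fold change at -0.13 with an SE of 0.0382 (limma, adjusted p = 0.023). The call was lost without Atg5KO replicate 1 or 3 (adjusted p = 0.067 and 0.056) or without Atg5F/F replicate 1 or 3 (0.060 and 0.0996), with fold changes of -0.13, -0.13, -0.13 and -0.12 in that order.

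The remaining gene of the family, Tfec, is not among the 10 genes but belongs to the pathway lists described further on. Tfec was about as abundant as Tfe3 and moved the other way, with 21.9, 24.4 and 20.9 FPKM in Atg5KO libraries against 19.0, 19.4 and 18.3 FPKM in Atg5F/F libraries. The groups did not overlap (log2 fold change 0.23, SE 0.0576, limma adjusted p = 0.013). On this scale per gene length, Tfe3 made up 40.5% of the summed level of the 4 family genes in Atg5KO and 46.0% in Atg5F/F libraries, and Tfec made up 45.0% in Atg5KO and 39.2% in Atg5F/F libraries. Tfeb contributed 9.59% in Atg5KO and 9.67% in Atg5F/F libraries. The summed level was 48.4 to 51.3 FPKM in Atg5KO and 47.6 to 49.0 FPKM in Atg5F/F libraries, ranges that overlapped.

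Flcn encodes folliculin, the GTPase-activating protein for RagC and RagD. It had 17.7, 18.2 and 17.8 FPKM in Atg5KO libraries, against 19.8, 21.4 and 21.8 FPKM in Atg5F/F libraries. All Atg5KO values were below all Atg5F/F values, and the Atg5KO libraries were the more tightly grouped. The means were 17.9 ± 0.253 FPKM in Atg5KO and 21.0 ± 1.07 FPKM in Atg5F/F libraries (SD, n = 3 each), which put the log2 fold change at -0.22 with an SE of 0.0463 (limma, adjusted p = 0.0066). Flcn was called lower in all 13 alternative fits, with fold changes from -0.26 to -0.19.

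Fnip1, a folliculin partner, went the other way. Its values were 15.5, 14.8 and 15.5 FPKM in Atg5KO libraries, against 13.6, 12.5 and 12.6 FPKM in Atg5F/F libraries. The groups did not overlap. The means were 15.3 ± 0.396 FPKM in Atg5KO and 12.9 ± 0.608 FPKM in Atg5F/F libraries (SD, n = 3 each), which put the log2 fold change at 0.23 with an SE of 0.0479 (limma, adjusted p = 0.0061). Fnip1 was called higher in all 13 alternative fits, though the fold change was 0.15 with each library's trend on gene length removed, against 0.23 with that trend in place.

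Fnip2, the paralogue of Fnip1, had 14.8, 15.1 and 16.0 FPKM in Atg5KO libraries, against 16.2, 16.5 and 16.4 FPKM in Atg5F/F libraries. The groups did not overlap, but Atg5KO replicate 3 came close to the Atg5F/F range. The log2 fold change of -0.09 (SE 0.0444) did not pass the test (limma adjusted p = 0.13). With voom on the recovered reads it was called lower (-0.12, adjusted p = 0.041), and removal of the trend on gene length also gave a call (-0.17, adjusted p = 0.011).

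Rragc encodes RagC, which pairs with RagA or RagB on the lysosome. It was the most abundant of the 10 genes, with 64.6, 65.7 and 63.7 FPKM in Atg5KO libraries, against 59.8, 58.4 and 60.3 FPKM in Atg5F/F libraries. The groups did not overlap, and each spanned less than the gap between them. The means were 64.7 ± 0.962 FPKM in Atg5KO and 59.5 ± 0.969 FPKM in Atg5F/F libraries (SD, n = 3 each), which put the log2 fold change at 0.12 with an SE of 0.0342 (limma, adjusted p = 0.024). Without Atg5KO replicate 1 or 2, or Atg5F/F replicate 1, 2 or 3, the call was lost (adjusted p = 0.052 to 0.067, fold changes of 0.11 to 0.13), as it was with median-ratio scaling (0.060), while without Atg5KO replicate 3 it was kept (0.13, adjusted p = 0.030). In GENCODE vM21, 264 exonic bases of Rragc overlap the antisense gene 4930535I16Rik; the strand setting of the counting is not given in the sources used here.

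Rragd, the paralogue of Rragc and a known target of TFEB family factors, had 24.6, 23.6 and 24.6 FPKM in Atg5KO libraries, against 23.9, 27.0 and 25.9 FPKM in Atg5F/F libraries. Atg5F/F replicate 1 fell within the Atg5KO range, while the other two lay above it. The log2 fold change of -0.07 (SE 0.0499) did not pass the test (limma adjusted p = 0.28).

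Mcoln1 encodes mucolipin 1, the lysosomal cation channel through which calcium is released. Its values were 32.1, 32.0 and 30.9 FPKM in Atg5KO libraries, against 33.6, 35.6 and 35.9 FPKM in Atg5F/F libraries. The groups did not overlap. The means were 31.6 ± 0.654 FPKM in Atg5KO and 35.0 ± 1.27 FPKM in Atg5F/F libraries (SD, n = 3 each), which put the log2 fold change at -0.14 with an SE of 0.0404 (limma, adjusted p = 0.022). The call depended on Atg5KO replicate 3 and Atg5F/F replicates 2 and 3: leaving out each in that order gave adjusted p of 0.063, 0.063 and 0.095 and fold changes of -0.13, -0.13 and -0.12.

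Gpnmb encodes a transmembrane glycoprotein of lysosomes and melanosomes that is induced in lysosomal stress and is abundant in macrophages. It had 5.61, 6.55 and 5.82 FPKM in Atg5KO libraries, against 19.6, 18.6 and 20.6 FPKM in Atg5F/F libraries. The groups were far apart. The means were 5.99 ± 0.494 FPKM in Atg5KO and 19.6 ± 0.981 FPKM in Atg5F/F libraries (SD, n = 3 each), a ratio of 0.306, which put the log2 fold change at -1.56 with an SE of 0.0632 (limma, adjusted p = 1.8e-06). The counts behind these values were 385 to 421 reads in Atg5KO and 1097 to 2235 reads in Atg5F/F libraries. Only 22 of the 11559 tested genes, Gpnmb included, were called with a fold change as low or lower. Gpnmb was called lower in all 13 alternative fits, at fold changes of -1.74 to -1.52.

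Markers of macrophages and melanocytes, in which Gpnmb is abundant, were mostly at or near 0, apart from 3 macrophage markers. Of 14 macrophage markers, 6 were listed at 0 in every library (Adgre1, Itgam, C1qa, C1qb, C1qc and Laptm5) and 5 more stayed under 1 FPKM (Ptprc, Lyz2, Aif1, Tyrobp and Fcer1g). The summed level of the 14 was 15.05 to 17.0 FPKM in Atg5KO and 16.0 to 18.8 FPKM in Atg5F/F libraries. It was carried by Csf1r, Cd68 and Cd14, of which none was called. Csf1r had 6.45 to 7.73 FPKM in Atg5KO and 6.37 to 7.57 FPKM in Atg5F/F libraries. Cd68 was lower without overlap, at 3.84 to 4.39 FPKM in Atg5KO and 4.52 to 5.49 FPKM in Atg5F/F libraries (log2 fold change -0.21, limma adjusted p = 0.062). Cd14 had 3.49 to 5.27 FPKM in Atg5KO and 3.88 to 5.26 FPKM in Atg5F/F libraries. Their part in the result was not tested. All 7 melanocyte markers were under 1 FPKM, with Tyr, Dct, Mlana and Oca2 at 0. All 7 fibroblast markers were also under 1 FPKM. So were 5 of 6 endothelium markers, but Kdr had 4.65 to 6.47 FPKM in Atg5KO and 8.36 to 9.49 FPKM in Atg5F/F libraries. Kdr was called lower (log2 fold change -0.63, limma adjusted p = 0.0013), and its part in the result was not tested. Of 7 loop and distal tubule markers, 6 were under 1 FPKM, and Fxyd4 reached at most 1.10 FPKM. In bulk samples, fewer cells of a type and less RNA per cell cannot be told apart.

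**Figure D3:**
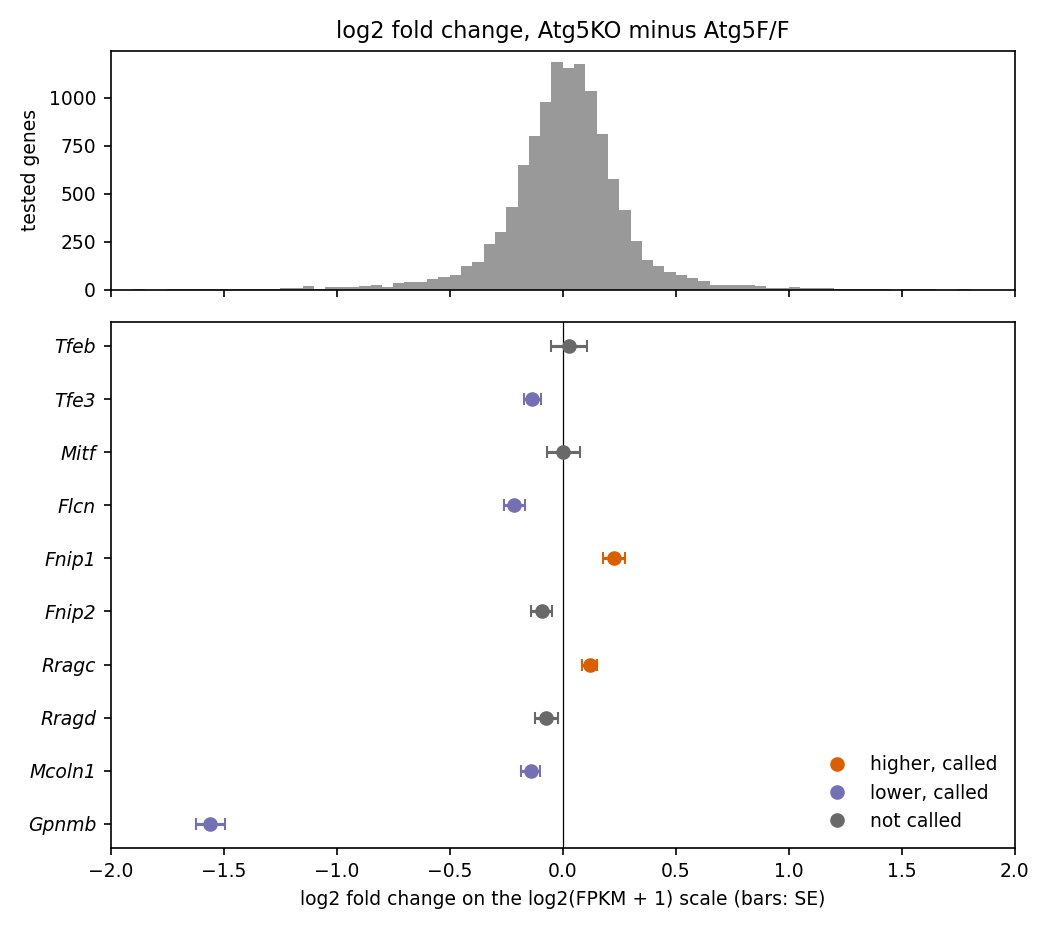
The upper plot counts the 11559 tested genes by log2 fold change (Atg5KO minus Atg5F/F, log2(FPKM + 1) scale, the most extreme genes lying outside the axis), and the lower plot gives the fold change ± SE of the 10 genes on the same axis. Gpnmb at -1.56 lies in the far left tail, and the other 9 lie between -0.22 and 0.23, within the bulk of all genes.

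For the 7 genes whose groups did not overlap, an exact two-sided permutation test of the 6 values gave p = 0.1, the smallest that 3 against 3 can give. The same exact permutation test gave p = 0.3 for Rragd, 0.7 for Tfeb and 1 for Mitf. The authors' deposited table also called 6 of the 10 genes at an FDR under 0.05, against 41.2% of the genes tested here. Calls in the authors' deposited table held Fnip2 (log2 fold change -0.13, FDR 0.042) and not Rragc (0.09, FDR 0.18), and otherwise Tfe3, Flcn, Fnip1, Mcoln1 and Gpnmb in the directions given above.

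Ranked by mean FPKM over the 6 libraries, a scale per gene length, the order was Rragc, Mcoln1, Rragd, Tfe3, Flcn, Fnip2, Fnip1, Gpnmb, Tfeb and Mitf. Neighbours whose ranges over the 6 libraries overlapped were Tfe3 (20.0 to 22.7 FPKM) and Flcn (17.7 to 21.8 FPKM), Flcn's partners Fnip2 and Fnip1, and Fnip1 and Gpnmb. The place of Gpnmb depended on the genotype: its Atg5F/F values reached those of Flcn, and its Atg5KO values lay just above those of Tfeb (4.26 to 5.08 FPKM over all libraries). The coefficient of variation within Atg5KO libraries ran from 0.955% for Tfe3 to 8.94% for Tfeb, and within Atg5F/F libraries from 1.05% for Fnip2 to 8.10% for Tfeb.

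Ratios of related genes within a library showed how the balance of paralogues differed. The Fnip2 to Fnip1 ratio was 0.953, 1.02 and 1.03 in Atg5KO libraries, against 1.19, 1.32 and 1.30 in Atg5F/F libraries. Both partners were thus about equally abundant in Atg5KO cells, while Fnip2 was the more abundant in every Atg5F/F library. The difference of the log2 ratios was -0.34.

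The Rragd to Rragc ratio was 0.380, 0.359 and 0.387 in Atg5KO libraries, against 0.400, 0.462 and 0.430 in Atg5F/F libraries, a difference of the log2 ratios of -0.20. Neither of these ratios overlapped between genotypes. For each the exact two-sided permutation p was 0.1, and adjusted over the 4 ratios compared it was 0.2, so neither can pass a threshold in this design. The Tfe3 to Tfeb ratio (4.25 ± 0.441 in Atg5KO and 4.79 ± 0.469 in Atg5F/F libraries) and the Mitf to Tfeb ratio (0.516 ± 0.0226 in Atg5KO and 0.526 ± 0.0235 in Atg5F/F libraries; SD, n = 3 each) overlapped, with exact permutation p of 0.3 and 0.7.

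**Figure D4:**
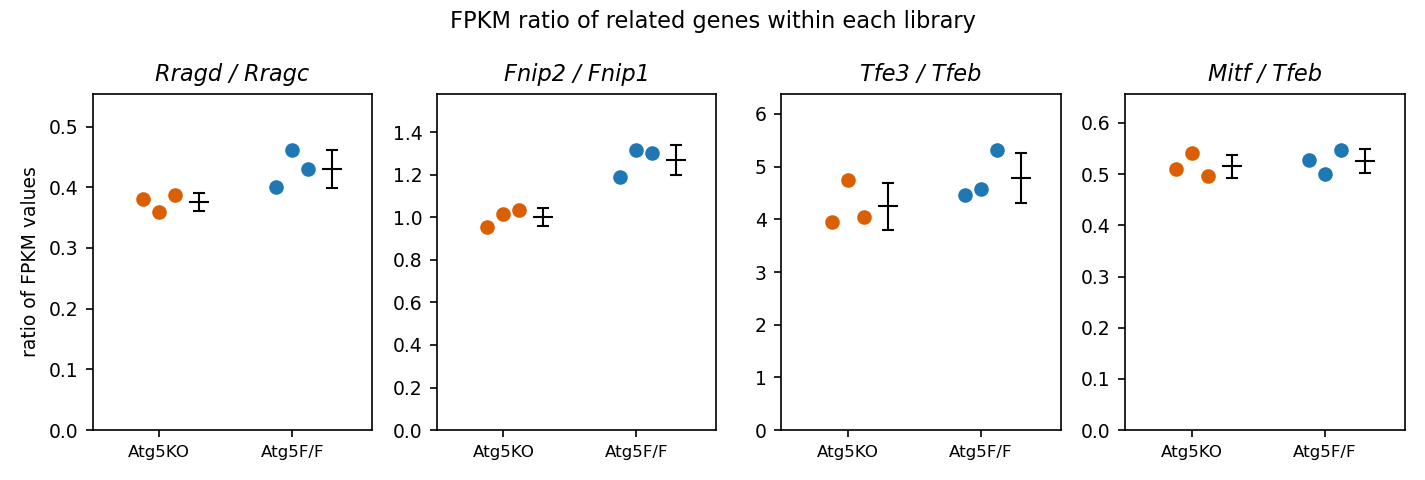
FPKM ratios of related genes in each library, Atg5KO (orange) left of Atg5F/F (blue), with the mean ± SD of each group in black. The Rragd to Rragc and Fnip2 to Fnip1 ratios do not overlap between genotypes, while the other two do.

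The genes whose pattern over the 6 libraries was most like that of Gpnmb, by Pearson correlation of log2(FPKM + 1), were Ppp5c, Igf2r and Msra (0.999 each). Igf2r, the receptor that carries mannose 6-phosphate-tagged enzymes to the lysosome, averaged 45.0 ± 0.855 FPKM in Atg5KO and 61.1 ± 0.866 FPKM in Atg5F/F libraries (SD, n = 3 each). Those most like Fnip1, the gene with the largest increase of the 10, were Rc3h1 (0.999), Rpa3 and Faxc (0.998 each). With 2 groups of 3 libraries, such a correlation mostly reflects the genotype difference.

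Other genes of the pathway were counted in lists written from general knowledge, but with earlier results of these data known. The shares given for each list are therefore descriptions and not independent tests. In the list of other Rag GTPases, Ragulator, mTORC1 and its TSC-Rheb switch, 10 of 18 genes fell in Atg5KO cells and 0 rose, with a median log2 fold change of -0.13, against 0.02 over all tested genes. The share that fell was 55.6%, against 17.9% of all tested genes, of which 21.3% rose. Among the Ragulator subunits, which anchor the Rag GTPases to the lysosome, those that fell were Lamtor4 (45.1 ± 2.21 FPKM in Atg5KO and 55.6 ± 3.48 FPKM in Atg5F/F libraries, -0.30, limma adjusted p = 0.0033), Lamtor2 (-0.22, adjusted p = 0.022) and Lamtor3 (-0.17, adjusted p = 0.027). The subunit genes Lamtor1 (-0.03, limma adjusted p = 0.69) and Lamtor5 (-0.09, adjusted p = 0.18) did not pass the test. The mTORC1 inhibitors Akt1s1, which encodes PRAS40 (-0.33, adjusted p = 6.3e-04), and Deptor (-0.29, adjusted p = 0.0075) fell too, as did Mtor itself (-0.13, adjusted p = 0.035). The partners of RagC and RagD, Rraga (-0.06) and Rragb (-0.01), did not pass the test. Leaving out Atg5KO replicate 1 or Atg5F/F replicate 2 left 4 of the 18 called lower, leaving out Atg5F/F replicate 1 or 3 left 5, and leaving out Atg5KO replicate 3 left 6.

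Upstream of the Rag GTPases, in GATOR, KICSTOR and the amino acid sensors, 5 of 17 tested genes fell and 1 rose, with a median of -0.06. The shares were 29.4% lower and 5.88% higher, against 17.9% and 21.3% of all tested genes. Sesn1, a leucine-sensor family gene and p53 target, rose (5.65 ± 0.153 FPKM in Atg5KO and 3.71 ± 0.0903 FPKM in Atg5F/F libraries, SD, n = 3 each; 0.50, limma adjusted p = 2.4e-04). Gatsl2, which encodes CASTOR2, a paralogue of the arginine sensor CASTOR1, fell (-0.28, adjusted p = 0.0019). So did the KICSTOR genes BC048403 (-0.24, adjusted p = 0.011) and Itfg2 (-0.22, adjusted p = 0.016). Gatsl3, which encodes CASTOR1 itself, did not pass the test (-0.06, limma adjusted p = 0.57). Lower genes numbered 3 when Atg5KO replicate 1, Atg5KO replicate 3 or Atg5F/F replicate 2 was left out, and 2 when Atg5F/F replicate 3 was. Higher genes numbered 2 with Atg5F/F replicate 1 or 2 left out. Quantile normalization gave 2 higher and 5 lower.

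Among genes whose products phosphorylate, dephosphorylate, bind or export the factors, with Tfec, 6 of 27 tested genes rose and 1 fell, with a median of 0.06. As shares, 22.2% rose and 3.70% fell, against 21.3% and 17.9% of all tested genes, so the share that rose was close to that over all genes. Sfn, the 14-3-3 sigma gene, had the largest increase (37.3 ± 2.73 FPKM in Atg5KO and 22.3 ± 1.22 FPKM in Atg5F/F libraries, SD, n = 3 each; 0.72, limma adjusted p = 4.9e-05). Sfn is also a p53 target. The phosphatase subunit gene Ppp2cb (0.30, adjusted p = 4.0e-04) and the kinase gene Map4k3 (0.20, adjusted p = 0.0026) rose as well, and Ywhag, another 14-3-3 gene, fell (-0.16, adjusted p = 0.0095). With Atg5F/F replicate 3 left out, 3 were higher and 0 lower, and with Atg5KO replicate 1 left out 2 were lower. Quantile normalization gave 11 higher and 0 lower, and median-ratio scaling gave 5 higher and 2 lower.

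In the list of other lysosomal ion channels and the kinase complex that makes PI(3,5)P2, the lipid that opens mucolipin 1, 3 of 9 tested genes rose and 2 fell, with a median of -0.10. On so few genes these shares, 33.3% higher and 22.2% lower, are near the 21.3% and 17.9% of all tested genes. The channel gene Tpcn1 (0.20, limma adjusted p = 0.015) and Ostm1, the partner of the chloride transporter ClC-7 (0.27, adjusted p = 0.0059), rose. The ATP-gated channel gene P2rx4 (-0.38, adjusted p = 0.0049) and Vac14, the scaffold of the lipid kinase complex (-0.17, adjusted p = 0.020), fell. Within that complex, the kinase gene Pikfyve rose (0.17, limma adjusted p = 0.022) and Fig4 did not pass the test (-0.02, limma adjusted p = 0.78). With Atg5F/F replicate 3 left out, 1 was higher and 1 lower, and with Atg5KO replicate 3 left out 1 was lower. With the trend on gene length removed, 1 was higher and 3 lower.

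Of genes described as direct TFEB targets with a CLEAR element, leaving out the 10 genes, 30 of 57 tested fell and 4 rose, with a median log2 fold change of -0.22. As shares, 52.6% fell and 7.02% rose, against 17.9% and 21.3% of all tested genes. The largest decreases were in Psap, which encodes the precursor of the saposins that activate sphingolipid hydrolases (287.5 ± 10.6 FPKM in Atg5KO and 458.2 ± 12.1 FPKM in Atg5F/F libraries, SD, n = 3 each; -0.67, limma adjusted p = 1.7e-05), and in Hexa, a beta-hexosaminidase gene (-0.66, adjusted p = 2.7e-05). Gaa, the lysosomal alpha-glucosidase gene (-0.63, adjusted p = 2.3e-05), and Neu1, the sialidase gene (-0.56, adjusted p = 1.5e-05), followed. The genes that rose were Wipi1 (0.53), Ppargc1a (0.49), Stk4 (0.27) and Uvrag (0.21), none of which encodes a lysosomal enzyme. Of 10 pigment genes described as MITF targets, 5 were listed at 0 in every library and Slc24a5 was the only one tested (0.16, limma adjusted p = 0.27).

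**Figure D5:**
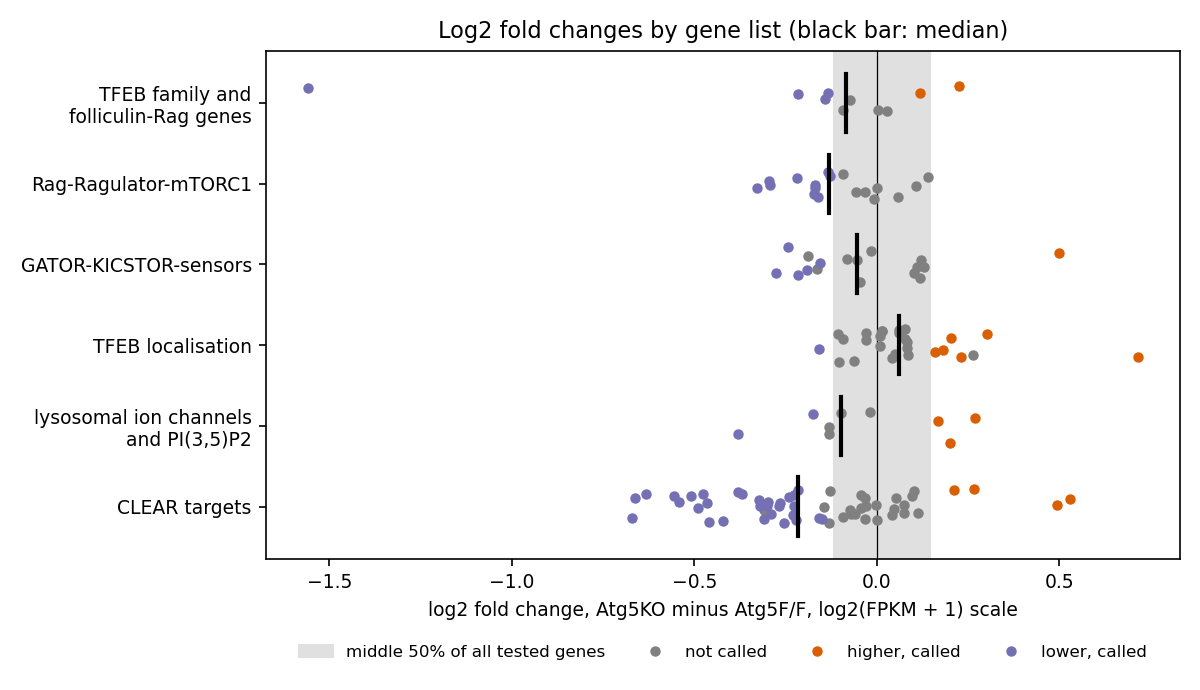
Log2 fold change (Atg5KO minus Atg5F/F, log2(FPKM + 1) scale) of each tested gene by list, with called genes in orange (higher) or purple (lower), the list median as a black bar and the middle 50% of all tested genes shaded. The CLEAR targets have their median at -0.22, left of the shaded band, and the list of other Rag, Ragulator and mTORC1 genes has its median at -0.13.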

How the data were processed

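The authors deposited 1 table of FPKM values per gene symbol and library, with a log2 fold change, a p-value, an FDR and a ranking score per gene. The submitters' processing notes name these tools: bcl2fastq, Trimmomatic (version 0.35), HISAT2 (2.1.0), featureCounts (1.4.6) and edgeR, with GRCm38 (mm10) as the build. What the sources used here do not give is the feature annotation, the strand setting and any filter. Per the labels' protocols, a stranded mRNA kit was used.

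Linear models per gene, with moderated variances that followed a mean trend, were fitted to log2(FPKM + 1) in limma 3.58.1 (R 4.3.3) as the main test. Genes needed 1 FPKM or more in 3 or more libraries. P-values were adjusted by Benjamini-Hochberg over all tested genes and called under 0.05. A length per gene and a total per library turned the FPKM of all 18296 genes above 0 (100%) into whole reads, within 2.0e-04 reads at low counts; limma's voom on them, with scaling by trimmed means, called 4997 genes. The steps were tested on simulated data. For the fit, the changes simulated were larger than those of Flcn, Fnip1, Tfe3, Mcoln1 and Rragc, so calls of such small changes were not tested in this way.

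The 10 genes and the lists were chosen with earlier results of these data known. Besides the 10 genes, the rule named Atg5 and up to 4 called genes per list with the largest change. It also named the 3 genes most correlated with each of Gpnmb and Fnip1. Rraga, Rragb, Lamtor1, Lamtor3, Lamtor5, Mtor, Gatsl3, Ywhag, Pikfyve, Fig4, Stk4, Uvrag, Wipi1, Ppargc1a and the single markers were named after their values were seen. Alternatives tried were the replicate number as a block, each library left out in turn, a pseudocount of 0.1, no filter, quantile normalization, median-ratio scaling, voom, and subtraction of a loess fit (span 0.5) on gene length per library. Promoter windows are RefSeq's on GRCm38.p6, and gene models are GENCODE vM21 on GRCm38. Python 3.11.15, pandas 2.3.3, numpy 2.4.6 and scipy 1.17.1 were also used.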

Additional observations from a re-analysis of the deposited data

How the results depend on the processing

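Gpnmb, Flcn and Fnip1 kept their direction and call in all 13 alternative fits, and Tfe3, Mcoln1 and Rragc kept their direction but lost the call in 4, 3 and 6 of them. Counts of the 10 genes were 1 to 2 higher and 2 to 4 lower when a library was left out, and 1 was higher with median-ratio scaling. The log2 fold change of Tfeb was -0.024 to 0.090 over left-out libraries, turning negative without Atg5KO replicate 1 or Atg5F/F replicate 3, and -0.0049 under quantile normalization. That of Mitf was -0.023 to 0.044 over left-out libraries, -0.020 under quantile normalization, -0.016 with median-ratio scaling, -0.024 with voom and -0.060 with the length trend removed. The log2 ratio difference of Mitf to Tfeb was -0.063 to 0.0024 over left-out libraries. For all of these the cause was not tested.

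Over left-out libraries, lower genes numbered 4 to 8 in the Rag, Ragulator and mTORC1 list, 2 to 5 in the GATOR list, 0 to 2 among genes acting on the factors and 1 to 3 among ion channels. Higher genes numbered 1 to 2 in the GATOR list, 3 to 6 among genes acting on the factors and 1 to 3 among ion channels. Without a filter, 6 genes of the Rag list were lower. Quantile normalization gave 2 higher in the GATOR list, and 11 higher and 0 lower among genes acting on the factors, where median-ratio scaling and voom each gave 2 lower. With the length trend removed, 1 ion channel gene and 7 CLEAR targets were higher. Lower CLEAR targets numbered 27 to 34 throughout.

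Deviations from the group means correlated at 0.16, 0.08 and -0.02 between same-numbered libraries. With 3 libraries per group and no label of animal or culture, these values cannot show whether the libraries were paired. The replicate block left the counts of the 10 genes at 2 higher and 4 lower, and gave 2 higher in the GATOR list. Tfeb and Mitf, with the fewest reads, had the largest SE.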

Other observations

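The mucolipin paralogues of Mcoln1 were below the filter on low values. Mcoln3, named here after its values were seen, had a mean of 0.240 ± 0.0615 FPKM in Atg5KO and 0.852 ± 0.0539 FPKM in Atg5F/F libraries (SD, n = 3 each), and it was not tested. Mcoln2 had a mean under 0.01 FPKM in each genotype.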
